A study of Mus musculus with 16 samples.

Results

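The genes described here are members of the Cyp2b and Cyp3a families of cytochrome P450, the liver enzymes induced by phenobarbital, with the reductase that supplies them with electrons. They were chosen by name, as every probe set whose only annotated gene symbol was Cyp2b9, Cyp2b10, Cyp2b13, Cyp3a11, Cyp3a13, Cyp3a16, Cyp3a25 or Por. This gave 9 of 45037 probe sets tested, and 7 of 18193 named genes. Cyp2b10 had 3 probe sets and the other 6 genes had 1 each. Por, the P450 reductase, was not analysed here.

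RNA from 16 liver samples of male C3H/HeJ mice was hybridised to Affymetrix GeneChip arrays, with an array for each sample. There were 7 tumours with mutated Ctnnb1 (the gene of beta-catenin) from mice on phenobarbital, 3 non-tumour livers from mice on phenobarbital, 3 tumours with mutated Ha-ras from mice without phenobarbital, and 3 non-tumour livers from mice without phenobarbital. Per the series design, mice had 1 injection of diethylnitrosamine, a liver carcinogen, when 2 or 6 weeks old, with a dose of 10 or 90 µg per g of body weight. After 2 weeks they went onto a diet with 0.05% phenobarbital or a plain diet, which lasted 28 to 36 weeks. The sample labels instead give phenobarbital in drinking water, or plain water, for 27 weeks, and another text gives mice of 29 to 32 days and a course of 28 days. The labels do not say which mouse gave which piece of tissue, how many mice there were, or the age and carcinogen dose of each, so that the p-values below measure the spread between these samples. The mutation and phenobarbital differ together between the tumour types and cannot be told apart in a direct comparison of the tumours.

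Cytochrome P450 enzymes of the endoplasmic reticulum oxidise drugs, steroids and bile acids, and make them easier to excrete. Phenobarbital leads the nuclear receptor CAR (gene Nr1i3) into the nucleus of the hepatocyte, where it binds DNA with the receptor RXR and turns on Cyp2b10, the usual reporter of CAR activity in mice, while the related receptor PXR (Nr1i2) is known for the induction of Cyp3a11. Cyp2b9 and Cyp2b13 are neighbours of Cyp2b10 and are known as genes expressed more in female than in male mouse liver.

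The sequences before the start of the 3 Cyp2b genes are shown because Cyp2b9 and Cyp2b13, whose levels moved together across the arrays, share nearly all of this sequence, while Cyp2b10 differs. They were picked with the levels known, and whether the sequence has a part in the levels was not tested. The sequences were taken from RefSeq's annotation of GRCm38.p6, in which all 8 named genes matched. Each is given 5′ to 3′ on the gene's strand, which is the plus strand for all 3, from 250 bases before the start the table uses and ending before the earliest start annotated for the gene. Capitals mark AGGTCA, the half-site that many nuclear receptors bind, and the bases at which Cyp2b9 and Cyp2b13 differ. The Cyp2b9 stretch is chr7:26173159-26173349, the Cyp2b13 stretch chr7:26061245-26061387 and the Cyp2b10 stretch chr7:25897408-25897657.
Cyp2b9: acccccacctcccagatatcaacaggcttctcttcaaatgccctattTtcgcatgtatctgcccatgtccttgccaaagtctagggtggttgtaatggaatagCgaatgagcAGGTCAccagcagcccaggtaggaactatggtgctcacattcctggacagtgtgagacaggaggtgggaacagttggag
Cyp2b13: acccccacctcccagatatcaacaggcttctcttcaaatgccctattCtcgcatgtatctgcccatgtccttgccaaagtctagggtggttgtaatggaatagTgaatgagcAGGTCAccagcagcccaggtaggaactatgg
Cyp2b10: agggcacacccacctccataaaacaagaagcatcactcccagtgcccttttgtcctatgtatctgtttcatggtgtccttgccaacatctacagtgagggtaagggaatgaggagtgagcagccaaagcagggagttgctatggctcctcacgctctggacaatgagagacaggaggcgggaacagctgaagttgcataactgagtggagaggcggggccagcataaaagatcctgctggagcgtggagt

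Over the whole window of 250 bases, Cyp2b9 and Cyp2b13 were identical at 248 positions (99.2%). The differences were T48C and C104T, with the base of Cyp2b9 first, the position counted from 1 at the 5′ end of the window, and the base of Cyp2b13 last. Cyp2b10 shared 71.0% of an alignment with each of them. The letters AGGTCA, read on either strand, were found in 4 of 7 members (Cyp2b9, Cyp2b13, Cyp3a11 and Cyp3a25) and in 14.0% of 32851 windows of the same length. In Cyp2b9 and Cyp2b13 the match began 138 bases before the start from which the window is counted, and the Cyp2b10 window held none. For Cyp2b9 and Cyp2b13 that start lies downstream of the gene start given below. Of their 250 bases, 191 and 143 come before the gene start, and the rest of each window is inside the annotated gene. The direct repeat of AGGTCA with 4 bases of any kind between the half-sites, read on either strand, was in 0 of 7 members and in 0.0152% of windows. It holds AGGTCA by construction. The phenobarbital-responsive enhancer known for Cyp2b10 lies further upstream and is outside these windows. The 3 genes lie on chromosome 7 of GRCm38.p6, Cyp2b10 at 25897658 to 25926624, Cyp2b13 at 26061388 to 26096197 and Cyp2b9 at 26173350 to 26210661. The Cyp3a members lie on chromosome 5, from Cyp3a13 at 137892933 to Cyp3a25 with its end at 146009644.

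All levels below are log2 values after RMA, a method that corrects background, sets all arrays to 1 distribution and summarises the probes of a probe set. A difference of 1 is a doubling of the measured signal, and levels of different probe sets are not compared with each other. Differences were tested with limma over all 45037 probe sets, and a probe set passed where its p, adjusted by Benjamini-Hochberg, was under 0.05. "Rose" and "fell" are used of probe sets that passed. Array medians lay between 5.03 and 5.10. As a sign of RNA quality, the 3′ control probe set of Gapdh was set against its 5′ one: their difference was 2.70 in phenobarbital control 6 and -0.15 to 0.32 in the other 15 arrays. The mean level of the 8 hepatocyte markers measured was 12.4 to 13.0 in Ctnnb1 tumours, 13.2 to 13.4 in phenobarbital controls, 12.7 to 13.1 in Ha-ras tumours and 13.0 to 13.2 in untreated controls, so that hepatocyte RNA was plentiful on every array.

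**Figure D1:**
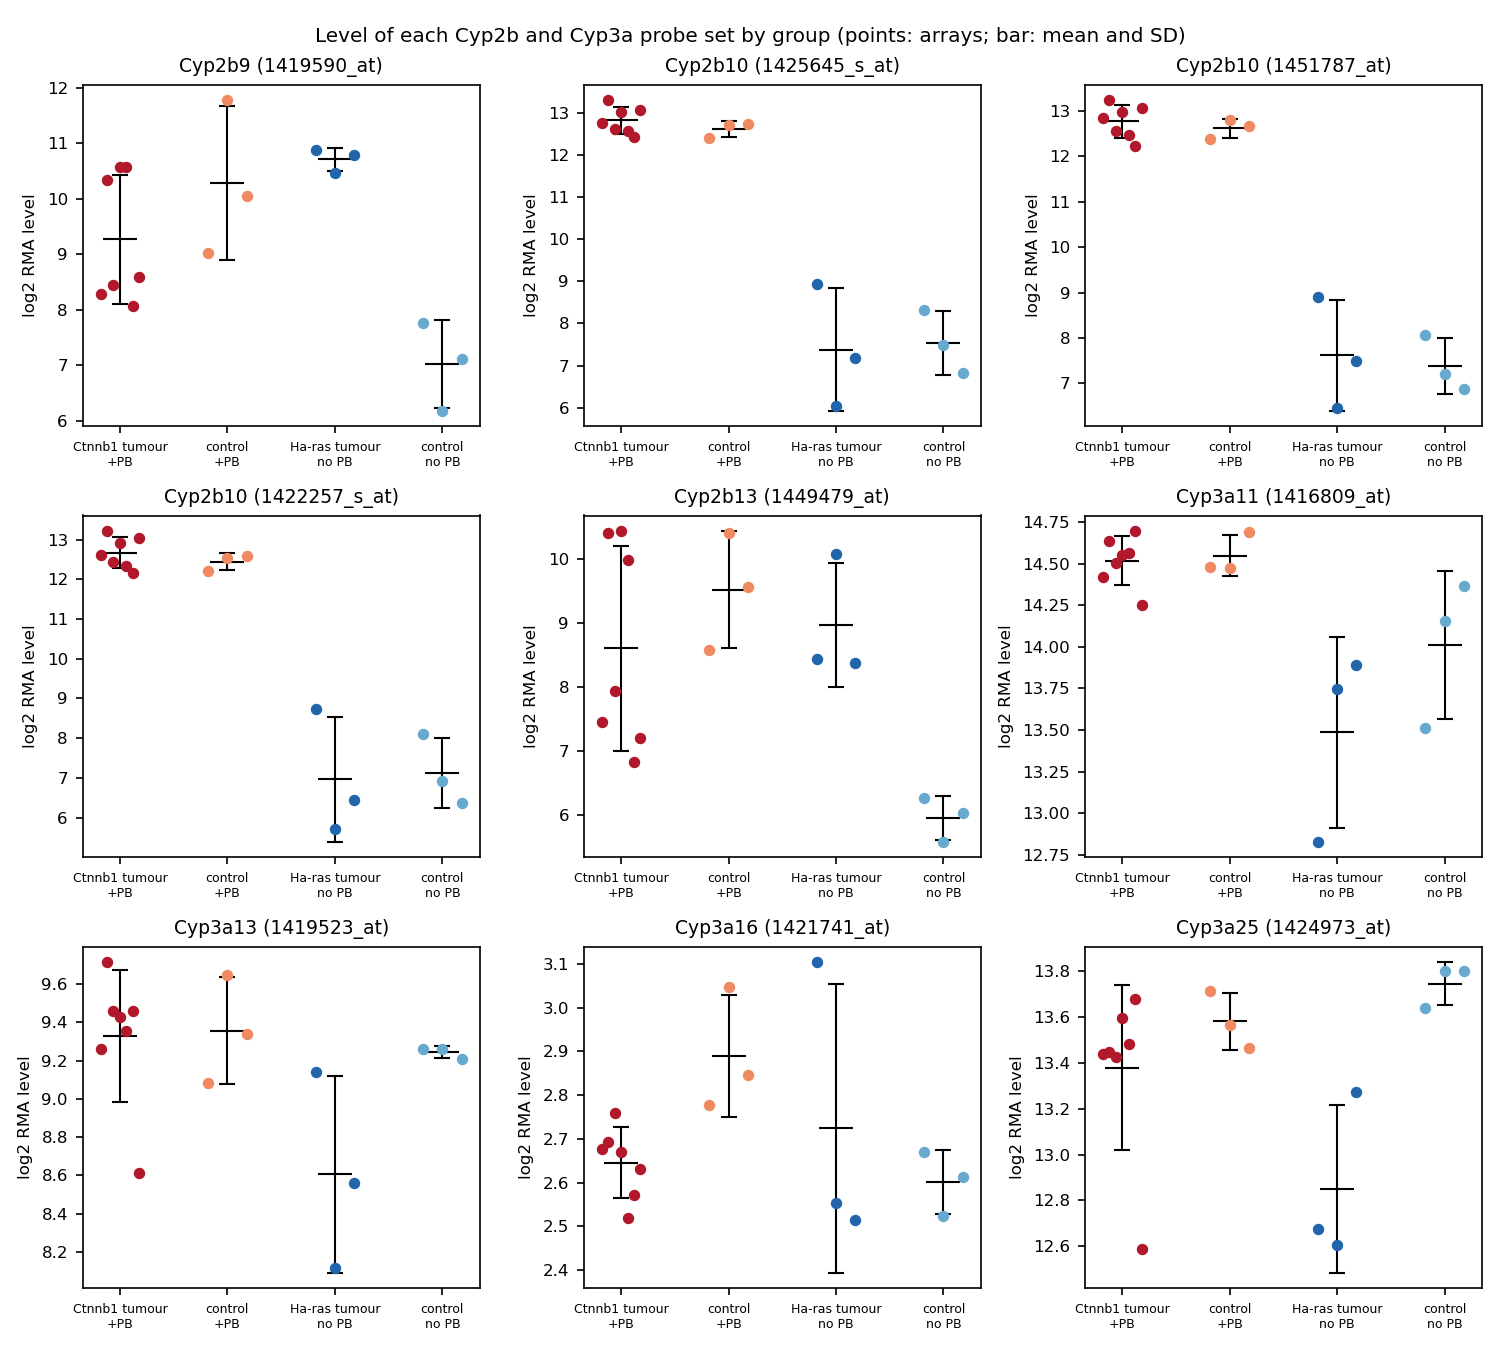
Log2 RMA level (vertical axis, its range set for each panel) of the 9 probe sets in Ctnnb1 tumours, phenobarbital controls, Ha-ras tumours and untreated controls. Points are arrays, bars give the mean and SD, and PB is phenobarbital. The 3 Cyp2b10 probe sets are above 12 in all arrays with phenobarbital and below 9 in all arrays without it, while Cyp2b9 and Cyp2b13 are lowest in untreated controls.

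In non-tumour liver, phenobarbital went with a rise of Cyp2b10 of more than 5 on the log2 scale. The leading probe set of Cyp2b10, the one with the highest mean of its 3, read 12.41, 12.71 and 12.73 in phenobarbital controls, against 8.33, 7.48 and 6.82 in untreated controls. This is a rise of 5.08 ± 0.51 (SE, n = 3 and 3; 33.8-fold; limma adjusted p = 0.000378). The other probe sets of the gene rose by 5.22 ± 0.45 (the second by mean, adjusted p = 0.000167) and 5.31 ± 0.57 (the third, adjusted p = 0.000595). The lowest phenobarbital array stood more than 3 log2 units above the highest untreated one in each of the 3 probe sets. All 3 calls held when any 1 of the 6 arrays was left out.

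Cyp2b9, a steroid hydroxylase, read 9.02, 11.78 and 10.05 in phenobarbital controls, against 7.76, 6.18 and 7.12 in untreated controls. Cyp2b13 read 8.58, 10.41 and 9.56 in phenobarbital controls, against 6.26, 5.58 and 6.02 in untreated controls. For both genes every phenobarbital array was above every untreated one. The differences, 3.26 ± 0.75 for Cyp2b9 (limma adjusted p = 0.0881) and 3.56 ± 0.90 for Cyp2b13 (adjusted p = 0.119), did not pass the threshold, with a wide spread among the phenobarbital controls (SD 1.39 for Cyp2b9 and 0.92 for Cyp2b13). Neither passed in any fit that left out 1 array.

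Cyp3a11, the main drug-oxidising Cyp3a enzyme of mouse liver, read 14.48, 14.47 and 14.69 in phenobarbital controls, against 13.51, 14.15 and 14.36 in untreated controls. The groups did not overlap, but the difference of 0.54 ± 0.24 (1.45-fold) did not pass (limma adjusted p = 0.345). The level of this probe set was higher than that of 99.9% of all probe sets. Cyp3a13 differed by 0.11, Cyp3a25 by -0.16 and Cyp3a16 by 0.29, with adjusted p of 0.893, 0.808 and 0.38. The mean of Cyp3a16, known for expression in the fetal liver, was 2.70 over all arrays, and 4.94% of probe sets had a lower mean, so that its values may be background.

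In all, 3 of 9 member probe sets rose and 0 fell between phenobarbital and untreated controls, the 3 being Cyp2b10, where 0.151% of all probe sets passed, 0.0955% higher and 0.0555% lower. The groups did not overlap in 7 of 9, against 17.6% of all probe sets. The median difference was 3.26 over the 9 member probe sets and 0.00 over all probe sets. Cyp2b10 enters these member numbers, and those of the comparisons below, 3 times. The Cyp3a members differed by -0.16 to 0.54 only, so that 3.26 does not describe a typical gene of the group.

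**Figure D2:**
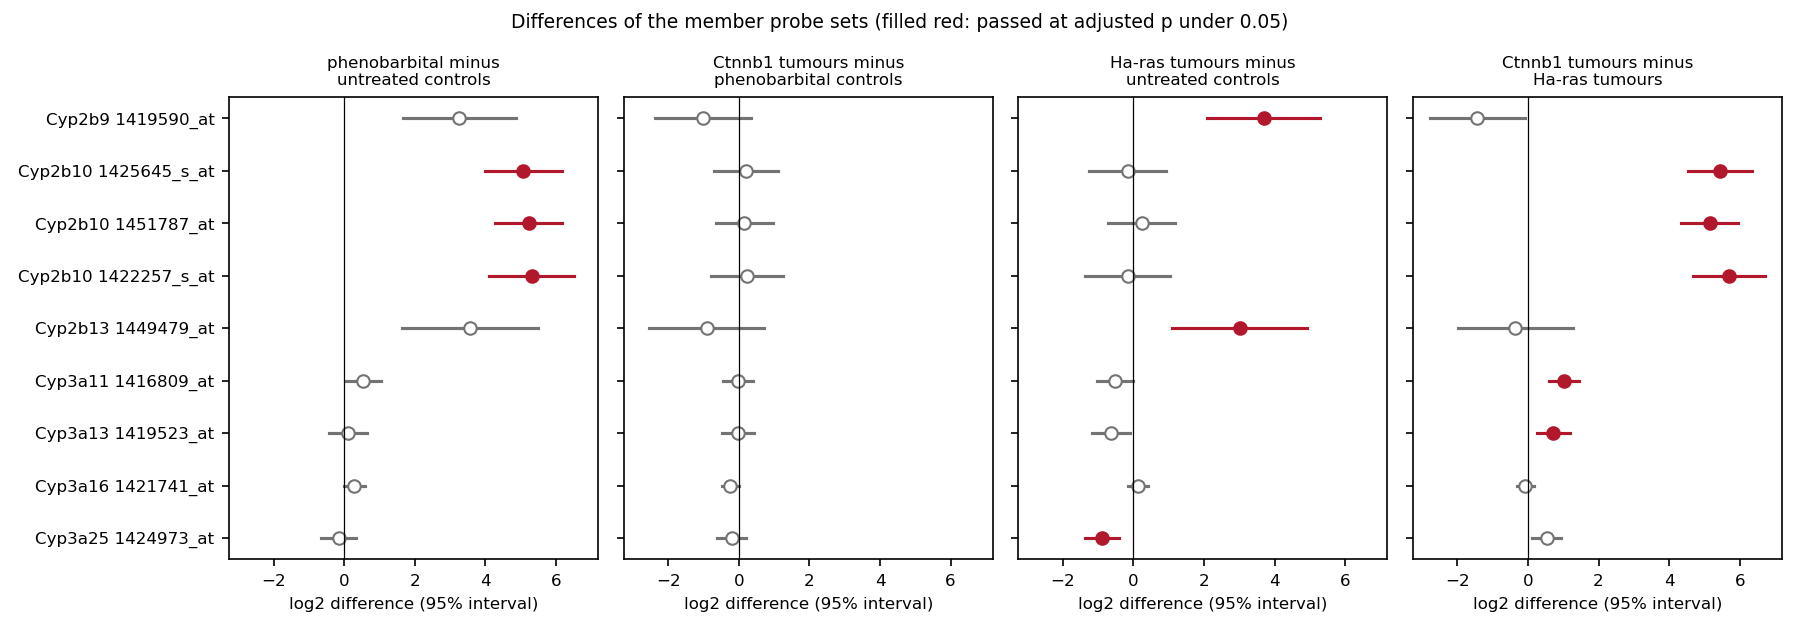
Log2 difference of each member probe set in 4 comparisons, with the 95% interval of the limma fit. Filled red points passed at an adjusted p under 0.05. Cyp2b10 stands above 5 in the outer panels and near 0 in the inner panels. The left outer panel sets phenobarbital against untreated controls. In the right outer panel the tumours differ in mutation as well as in phenobarbital. Cyp2b9 and Cyp2b13 are at 3.69 and 3.01 in the panel of Ha-ras tumours against untreated controls.

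In Ctnnb1 tumours no member passed in either direction against non-tumour liver of mice that also had phenobarbital. Cyp2b10 (leading probe set) was 12.43 at its lowest, 12.76 at the median and 13.31 at its highest in the 7 Ctnnb1 tumours, against 12.41, 12.71 and 12.73 in phenobarbital controls. The difference was 0.20, with a 95% interval of -0.71 to 1.12 (limma adjusted p = 0.827). The interval leaves room for a change of about 1 log2 unit either way.

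Cyp2b9 was 8.08 at its lowest, 8.60 at the median and 10.58 at its highest in Ctnnb1 tumours, against 9.02, 11.78 and 10.05 in phenobarbital controls, a difference of -1.01 ± 0.64 (limma adjusted p = 0.365). Cyp2b13 was 6.83, 7.94 and 10.44 on the same scale in Ctnnb1 tumours, against 8.58, 10.41 and 9.56 in phenobarbital controls, a difference of -0.91 ± 0.76 (adjusted p = 0.516). The groups overlapped for both genes. The Cyp3a members differed by -0.03 (Cyp3a11), -0.03 (Cyp3a13), -0.24 (Cyp3a16) and -0.20 (Cyp3a25), with adjusted p of 0.951, 0.956, 0.209 and 0.577.

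By limma, 0 of 9 member probe sets passed between Ctnnb1 tumours and phenobarbital controls, where 8.45% of all probe sets did, 4.33% higher and 4.12% lower. Before adjustment 1 of 9 had a p under 0.05. This was Cyp3a16, which was also the 1 probe set whose groups did not overlap, against 10.2% of all probe sets. The median difference was -0.03 over the members and -0.03 over all probe sets.

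The spread among the 7 Ctnnb1 tumours was unequal between the genes. The SD was 1.16 for Cyp2b9 and 1.60 for Cyp2b13, against 0.31 to 0.39 for the Cyp2b10 probe sets and 0.15 to 0.36 for Cyp3a11, Cyp3a13 and Cyp3a25. Cyp2b9 and Cyp2b13 were high and low in the same tumours. Both were above their means in tumours 2, 4 and 5 and below them in tumours 1, 3, 6 and 7. Their Pearson correlation was 0.973 over these 7 tumours and 0.9 over 16 arrays. For Cyp2b9 and Cyp2b10 (leading probe set) it was 0.45 over the 7 tumours and 0.235 over 16 arrays. Tumour 7 was the lowest of the 7 in Cyp3a11, Cyp3a13 and Cyp3a25, whose correlations over the 7 tumours were 0.872 to 0.889. It read 8.61 in Cyp3a13 and 12.59 in Cyp3a25, where the next lowest tumours read 9.26 and 13.42. This 1 array weighs heavily in the correlations of the Cyp3a genes, which were not computed without it. These correlations describe points that share the arrays and the normalization, and family members may share probe sequence. Whether a probe set also detected RNA of a related gene was not tested.

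**Figure D3:**
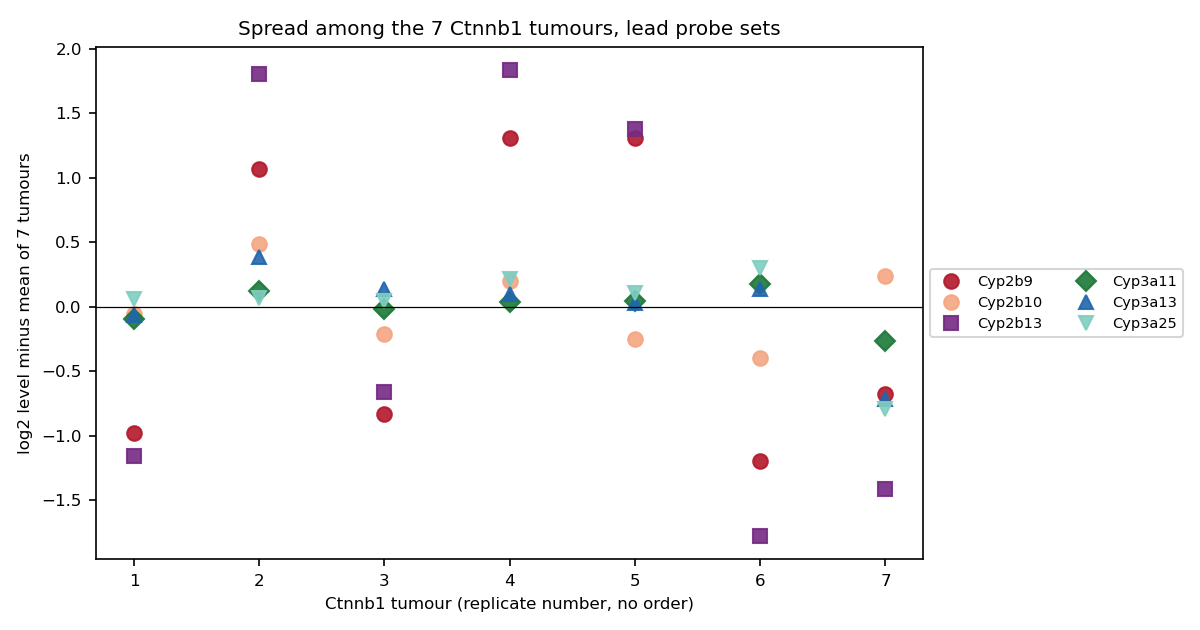
Log2 level minus the mean of the 7 Ctnnb1 tumours (vertical axis) for each tumour (horizontal axis, replicate numbers in no order), leading probe sets, Cyp3a16 left out. Cyp2b9 and Cyp2b13 share the sign of their deviation in all 7 tumours, and Cyp2b10 stays within 0.5 of its mean.

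The Ha-ras tumours, compared with untreated non-tumour liver, had higher Cyp2b9 and Cyp2b13 without phenobarbital, and lower Cyp3a25. Cyp2b9 read 10.87, 10.47 and 10.79 in Ha-ras tumours, against 7.76, 6.18 and 7.12 in untreated controls. Cyp2b13 read 8.44, 10.08 and 8.37 in Ha-ras tumours, against 6.26, 5.58 and 6.02 in untreated controls. All 3 tumours were above all 3 controls in both genes. Cyp2b9 rose by 3.69 ± 0.75 (SE, n = 3 and 3; 12.9-fold; limma adjusted p = 0.00483) and Cyp2b13 by 3.01 ± 0.90 (8.05-fold; adjusted p = 0.0491). The call of Cyp2b9 held in 6 of 6 fits that left out 1 array. That of Cyp2b13 was lost in 6 of 6, with an adjusted p of 0.0661 to 0.19.

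Cyp2b10 did not pass in these tumours. Its leading probe set read 8.93, 6.04 and 7.17 in Ha-ras tumours, against 8.33, 7.48 and 6.82 in untreated controls. The groups overlapped, and the difference was -0.16, with a 95% interval of -1.25 to 0.92 (limma adjusted p = 0.907). The other 2 probe sets differed by 0.23 (the second) and -0.16 (the third).

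Whether the genes of the Cyp2b cluster differed from each other in their change was tested on the difference between their log2 values within each array, with 12 exact two-sided permutation tests. The value of Cyp2b9 minus Cyp2b10 was 3.33 ± 1.27 in Ha-ras tumours and -0.52 ± 0.80 in untreated controls (SD, n = 3 each). The groups did not overlap, and the exact p was 0.1, the smallest that 3 against 3 allows (adjusted p = 0.2). For Cyp2b13 minus Cyp2b10 the values were 1.58 ± 2.29 in Ha-ras tumours and -1.59 ± 0.69 in untreated controls, with no overlap and the same exact p. Between Ctnnb1 and Ha-ras tumours both differences had an exact p of 0.00833, the smallest that 7 against 3 allows, and an adjusted p of 0.05, which is not under the threshold. Between phenobarbital and untreated controls, Cyp2b13 minus Cyp2b10 differed by -1.51, also without overlap and with an exact p of 0.1 (adjusted p = 0.2). Cyp2b9 minus Cyp2b10 differed there by -1.82, with overlap (exact p = 0.2, adjusted p = 0.3). Between Ctnnb1 tumours and phenobarbital controls the differences were -1.22 for Cyp2b9 and -1.12 for Cyp2b13, each minus Cyp2b10, with exact p of 0.133 and 0.258. Cyp2b9 minus Cyp2b13 had an exact p of 0.075 to 0.808 in the 4 comparisons.

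**Figure D4:**
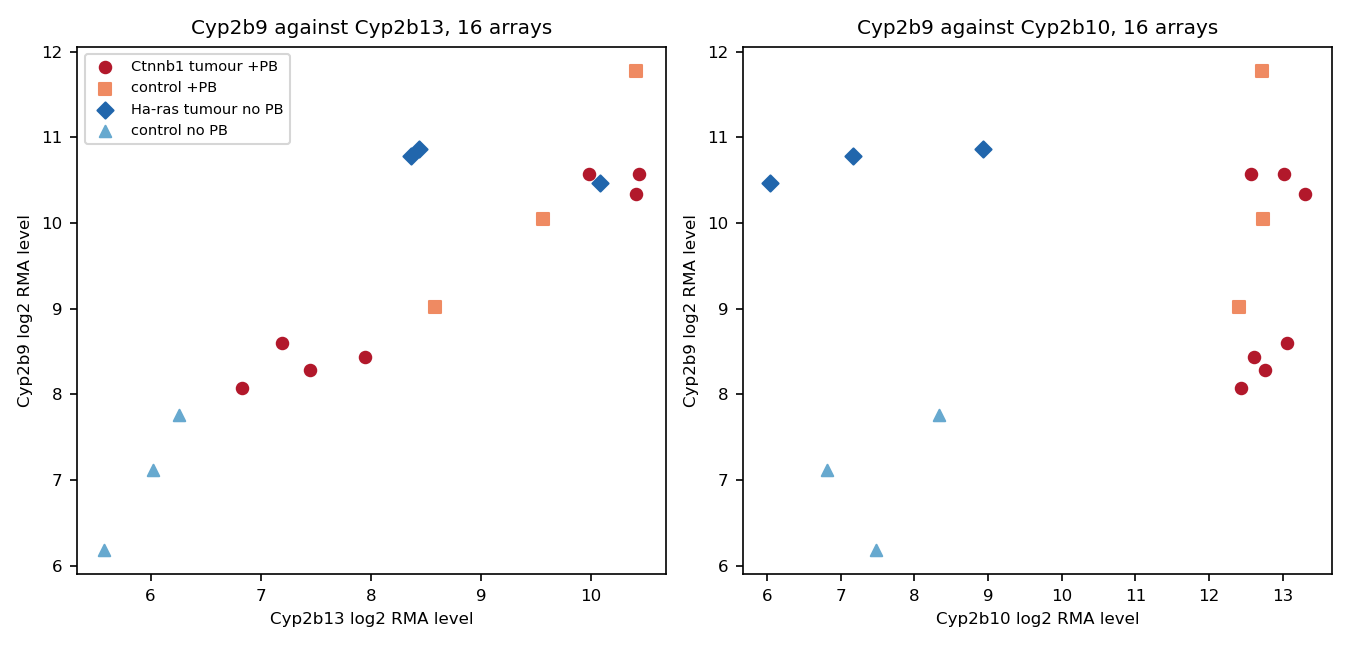
Log2 RMA level of Cyp2b9 (vertical axes) against Cyp2b13 and against Cyp2b10 (leading probe set), 1 point per array, with the 4 groups marked by colour and shape. Cyp2b9 and Cyp2b13 lie along 1 band apart from Ha-ras tumours 1 and 3, which are higher in Cyp2b9 for their Cyp2b13, while against Cyp2b10 the 3 Ha-ras tumours lie apart, high in Cyp2b9 and low in Cyp2b10.

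Cyp3a25, a steroid-oxidising member of its family, read 12.67, 12.61 and 13.27 in Ha-ras tumours, against 13.64, 13.80 and 13.80 in untreated controls. The groups did not overlap, and it fell by 0.90 ± 0.23 (a fall of 1.86-fold; limma adjusted p = 0.0205). The call was lost, with an adjusted p of up to 0.0953, without Ha-ras tumour 1 or 2 or untreated control 2 or 3. Cyp3a13 read 9.14, 8.11 and 8.56 in Ha-ras tumours, against 9.26, 9.26 and 9.21 in untreated controls, without overlap, and its difference of -0.64 ± 0.25 did not pass (adjusted p = 0.149). Cyp3a11 read 12.83, 13.74 and 13.89 in Ha-ras tumours, against 13.51, 14.15 and 14.36 in untreated controls. These groups overlapped, and the difference of -0.52 ± 0.24 did not pass (adjusted p = 0.218).

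Counted over the members, 2 of 9 probe sets rose and 1 fell between Ha-ras tumours and untreated controls, where 8.91% of all probe sets passed, 4.91% higher and 4% lower. The groups did not overlap in 4 of 9, against 29.8% of all probe sets. The median difference was -0.16 over the members and -0.03 over all probe sets. Markers of resident liver macrophages moved as well. Of 11 such genes 4 fell, and their mean level was 6.96 to 8.85 in Ha-ras tumours, against 8.50 to 9.27 in untreated controls. This count rested on single arrays: it was 0 without Ha-ras tumour 1, 1 without Ha-ras tumour 2 or untreated control 1, 2 without untreated control 3, 3 without untreated control 2 and 8 without Ha-ras tumour 3. Of 10 pericentral hepatocyte markers 5 fell, with a mean level of 8.13 to 8.84 in Ha-ras tumours, against 10.1 to 10.6 in untreated controls. Of 10 stellate cell markers 3 fell, and of the endothelial, cholangiocyte and lymphocyte markers 0 of 10, 0 of 6 and 0 of 7 passed by limma. The part of these cells in the results on the P450 genes was not tested. In RNA of whole tissue, fewer cells of a type and less RNA per cell cannot be told apart.

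The change in Ctnnb1 tumours minus the change in Ha-ras tumours, each against its own controls, was -4.70 ± 0.99 for Cyp2b9 (limma adjusted p = 0.0138). It held in 16 of 16 fits that left out 1 array, between -5.33 and -3.95. Cyp2b13 gave -3.92 ± 1.18, which did not pass (adjusted p = 0.0904). The 3 Cyp2b10 probe sets gave 0.37, -0.08 and 0.39, and the Cyp3a members between -0.37 and 0.69, without a pass. Thus 1 of 9 member probe sets passed, where 3.34% of all probe sets did, 1.21% higher and 2.14% lower. This difference also sets treated against untreated tissue, since 1 tumour type and its controls were under phenobarbital and the other pair was not.

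Set against each other directly, Ctnnb1 tumours under phenobarbital had more Cyp2b10, Cyp3a11 and Cyp3a13 signal than Ha-ras tumours without it. Cyp2b10 (leading probe set) averaged 12.8 ± 0.31 in Ctnnb1 tumours (SD, n = 7) and 7.38 ± 1.45 in Ha-ras tumours (SD, n = 3). The difference was 5.44 ± 0.43 (SE; 43.5-fold; limma adjusted p = 4.2e-07). The other probe sets differed by 5.15 ± 0.38 (the second, adjusted p = 1.86e-07) and 5.70 ± 0.48 (the third, adjusted p = 8.07e-07).

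Cyp3a11 was 14.25 at its lowest, 14.55 at the median and 14.70 at its highest in Ctnnb1 tumours, against 12.83, 13.74 and 13.89 in Ha-ras tumours. The groups did not overlap, and it rose by 1.03 ± 0.20 (2.04-fold; limma adjusted p = 0.00286), also in each of 10 fits without 1 array. Cyp3a13 was 8.61, 9.43 and 9.72 in the same order in Ctnnb1 tumours, against 9.14, 8.11 and 8.56 in Ha-ras tumours. The groups overlapped through Ctnnb1 tumour 7 and Ha-ras tumour 1, and it rose by 0.72 ± 0.22 (1.65-fold; adjusted p = 0.0429). This call was kept without either of those arrays and was lost in the other 8 of 10 fits without 1 array, with an adjusted p of up to 0.282.

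Cyp2b9 differed between the tumour types by -1.44 ± 0.64 (limma adjusted p = 0.195) and Cyp2b13 by -0.36 ± 0.76 (adjusted p = 0.859). Cyp3a25 differed by 0.53 ± 0.19 (adjusted p = 0.103), and passed when Ctnnb1 tumour 7 was left out (0.66, adjusted p = 0.00303). It also passed when Ha-ras tumour 3 was left out (adjusted p = 0.0349). Among the members 5 of 9 probe sets rose and 0 fell, where 10.3% of all probe sets passed, 4.87% higher and 5.39% lower. In 4 of 9 the groups did not overlap, against 12.8% of all. The median difference was 0.72 over the 9 member probe sets, in which Cyp2b10 counts 3 times, and 0.01 over all probe sets.

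The order of the group means differed between the genes. For Cyp2b9 it ran from Ha-ras tumours (10.7 ± 0.21) over phenobarbital controls (10.3 ± 1.39) and Ctnnb1 tumours (9.27 ± 1.16) to untreated controls (7.02 ± 0.79). Neighbours in this order overlapped, except that untreated controls lay below all arrays of the other groups. For Cyp2b13 it ran from phenobarbital controls (9.52 ± 0.92) over Ha-ras tumours (8.96 ± 0.97) and Ctnnb1 tumours (8.60 ± 1.60) to untreated controls (5.95 ± 0.35), with the same gap at the end. For Cyp2b10 both groups under phenobarbital overlapped, both groups without it overlapped, and the pairs lay apart. For Cyp3a25 it ran from untreated controls (13.7 ± 0.09) over phenobarbital controls (13.6 ± 0.13) and Ctnnb1 tumours (13.4 ± 0.36) to Ha-ras tumours (12.9 ± 0.37), all neighbours overlapping.

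Few other genes of the Cyp2b and Cyp3a families had probe sets named here. A probe set shared by Cyp3a41a and Cyp3a41b, which cannot be assigned to either gene, fell by 1.30 ± 0.19 in Ha-ras tumours against untreated controls (limma adjusted p = 0.00032). Cyp2b19, known from skin, fell by 0.40 ± 0.09 in the same comparison (adjusted p = 0.00718), at a level of 2.85 in Ha-ras tumours and 3.25 in untreated controls, near the bottom of the scale. Cyp3a44 passed in none of the 5 comparisons.

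Of the receptors and kinases that control CAR and PXR, 16 of 18 listed genes were measured. Nr1i3, the gene of CAR, read 6.16 at its lowest, 6.64 at the median and 7.31 at its highest in Ha-ras tumours, against 8.56, 9.45 and 9.46 in untreated controls. It fell by 2.46 ± 0.29 (5.49-fold; limma adjusted p = 4.82e-05), and the call held in 6 of 6 fits without 1 array. In Ctnnb1 tumours it averaged 9.22 ± 0.28 (SD, n = 7), against 8.52 ± 0.28 in phenobarbital controls (SD, n = 3), a difference of 0.71 that did not pass (adjusted p = 0.0847). The difference between these changes was 3.16 ± 0.38 (adjusted p = 0.000144).

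Nr1i2, the gene of PXR, passed in none of the 5 comparisons, with differences of -0.24 to 0.43. Egfr, whose signalling is known to hold CAR in the cytoplasm, fell by 1.80 ± 0.23 in Ctnnb1 tumours (limma adjusted p = 0.000271) and by 1.11 ± 0.27 in Ha-ras tumours (adjusted p = 0.0154), each against its controls. Of its other 6 probe sets, 2 passed as falls in both comparisons and 4 in neither. The chaperone partner gene Dnajc7 fell by 0.44 ± 0.13 in Ctnnb1 tumours (adjusted p = 0.0459), a call that held in 1 of 10 fits without 1 array. The fall of Egfr in Ha-ras tumours was lost without untreated control 2 or Ha-ras tumour 2, with an adjusted p of up to 0.0799. Of the 16 genes, 0 rose and 2 fell in each tumour type against its controls. Of all probe sets, 8.45% passed in Ctnnb1 tumours and 8.91% in Ha-ras tumours, in either direction. The median differences of the 16 genes were -0.22 in Ctnnb1 tumours and -0.11 in Ha-ras tumours. Between phenobarbital and untreated controls 0 passed by limma.

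Other genes known to be induced through CAR or PXR were measured for 32 of 36 listed names. Between phenobarbital and untreated controls 4 rose and 0 fell, with a median of 0.65. These were the P450 genes Cyp2c65 (4.80 ± 0.85, limma adjusted p = 0.0314), Cyp2c55 (3.90 ± 0.36, adjusted p = 0.000257) and Cyp2c54 (1.17 ± 0.21, adjusted p = 0.0324), and the glutathione transferase gene Gstm3 (1.88 ± 0.33, adjusted p = 0.03). Cyp2c55 held in all 6 fits without 1 array, while the other 3 were lost in all 6, with an adjusted p of up to 0.115. The other Gstm3 probe set rose by 2.36 ± 0.42 (adjusted p = 0.0319). Alas1, the rate-limiting enzyme of heme synthesis and itself a known target, differed by 0.07 (adjusted p = 0.983), with an SD of 2.37 in untreated controls.

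In Ctnnb1 tumours 7 of the 32 genes rose and 0 fell against phenobarbital controls, with a median of 0.15. The largest were the transporter gene Abcc4 (2.78 ± 0.61, limma adjusted p = 0.0113), Gstm2 (1.79 ± 0.25, adjusted p = 0.000514), the transporter gene Abcb1a (1.26 ± 0.37, adjusted p = 0.0482) and the epoxide hydrolase gene Ephx1 (0.97 ± 0.13, adjusted p = 0.00042). The count was 4 to 6 in fits without 1 array. Abcb1a held in 1 of 10 of them, and Abcc4 was lost without phenobarbital control 4 (adjusted p = 0.0565). The other Abcb1a probe set rose by 1.84 ± 0.32 (adjusted p = 0.00252). Beside it, 3 of 10 pericentral hepatocyte markers rose, with a mean level of 10.0 to 12.3 in Ctnnb1 tumours, against 9.62 to 10.9 in phenobarbital controls. These were Lgr5, Lect2 and Cyp7a1, named after their values were seen, of which Cyp7a1 held in 1 of 10 fits without 1 array. The count was 1 without phenobarbital control 4, 6 without Ctnnb1 tumour 6 and 2 or 3 in the other 8 fits. Of 8 periportal markers 7 fell, with a mean level of 6.81 to 8.95 in Ctnnb1 tumours, against 10.9 to 11.4 in phenobarbital controls. Of the hepatocyte markers 4 of 8 fell, namely Cps1 (-2.17), Tat (-1.57), Ass1 (-1.27) and Apoc3 (-0.42). Ass1 is also a periportal marker and is counted in both lists. The hepatocyte markers Alb, Ttr, Apoa1 and Fgb did not pass. Of the macrophage markers 2 of 11 fell, of the endothelial markers 2 of 10 and of the stellate cell markers 4 of 10. The macrophage count was 1 without phenobarbital control 4 or 5, and the endothelial count was 1 in 9 of 10 fits, kept at 2 only without Ctnnb1 tumour 1. Their part in these counts was not tested.

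In Ha-ras tumours 8 of the 32 genes fell and 1 rose against untreated controls, with a median of -0.28. Cyp2c37, Cyp2c50 and Cyp2c54 fell by 3.12 ± 0.31, 2.99 ± 0.24 and 2.85 ± 0.21 (limma adjusted p of 1.13e-05, 1.51e-06 and 5.41e-07), and the carboxylesterase gene Ces2a fell by 1.76 ± 0.28 (adjusted p = 0.000797). Abcb1a went the other way, with a rise of 1.88 ± 0.44 (adjusted p = 0.0127) that was lost without untreated control 2 or Ha-ras tumour 3. Its other probe set rose by 2.17 ± 0.38 (adjusted p = 0.00145). In fits without 1 array, 7 to 9 fell and 0 to 1 rose. Probe sets of the Cyp2c and Gstm families may detect more than 1 gene of the family, and which one each measured is uncertain.

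The difference between the tumour changes passed for 9 of the 32 genes, all higher, with Cyp2c50 (2.91 ± 0.32), Cyp2c54 (2.85 ± 0.28), Gstm2 (2.68 ± 0.39) and Cyp2c37 (2.56 ± 0.41) at the top. Between Ctnnb1 and Ha-ras tumours 21 rose and 0 fell. Among them Cyp2c55 averaged 13.0 ± 0.33 in Ctnnb1 tumours and 7.64 ± 0.91 in Ha-ras tumours, a difference of 5.31 ± 0.31 (limma adjusted p = 1.19e-08). Markers of the liver zones moved in both comparisons. Between the tumours 10 of 10 pericentral markers rose (median 3.42) and 4 of 8 periportal markers fell (median -1.85). For the difference between the changes, 5 of 10 pericentral markers passed as higher (median 3.33) and 3 of 8 periportal markers as lower (median -1.84). Their part in the results on the P450 genes and the other targets was not tested.

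**Figure D5:**
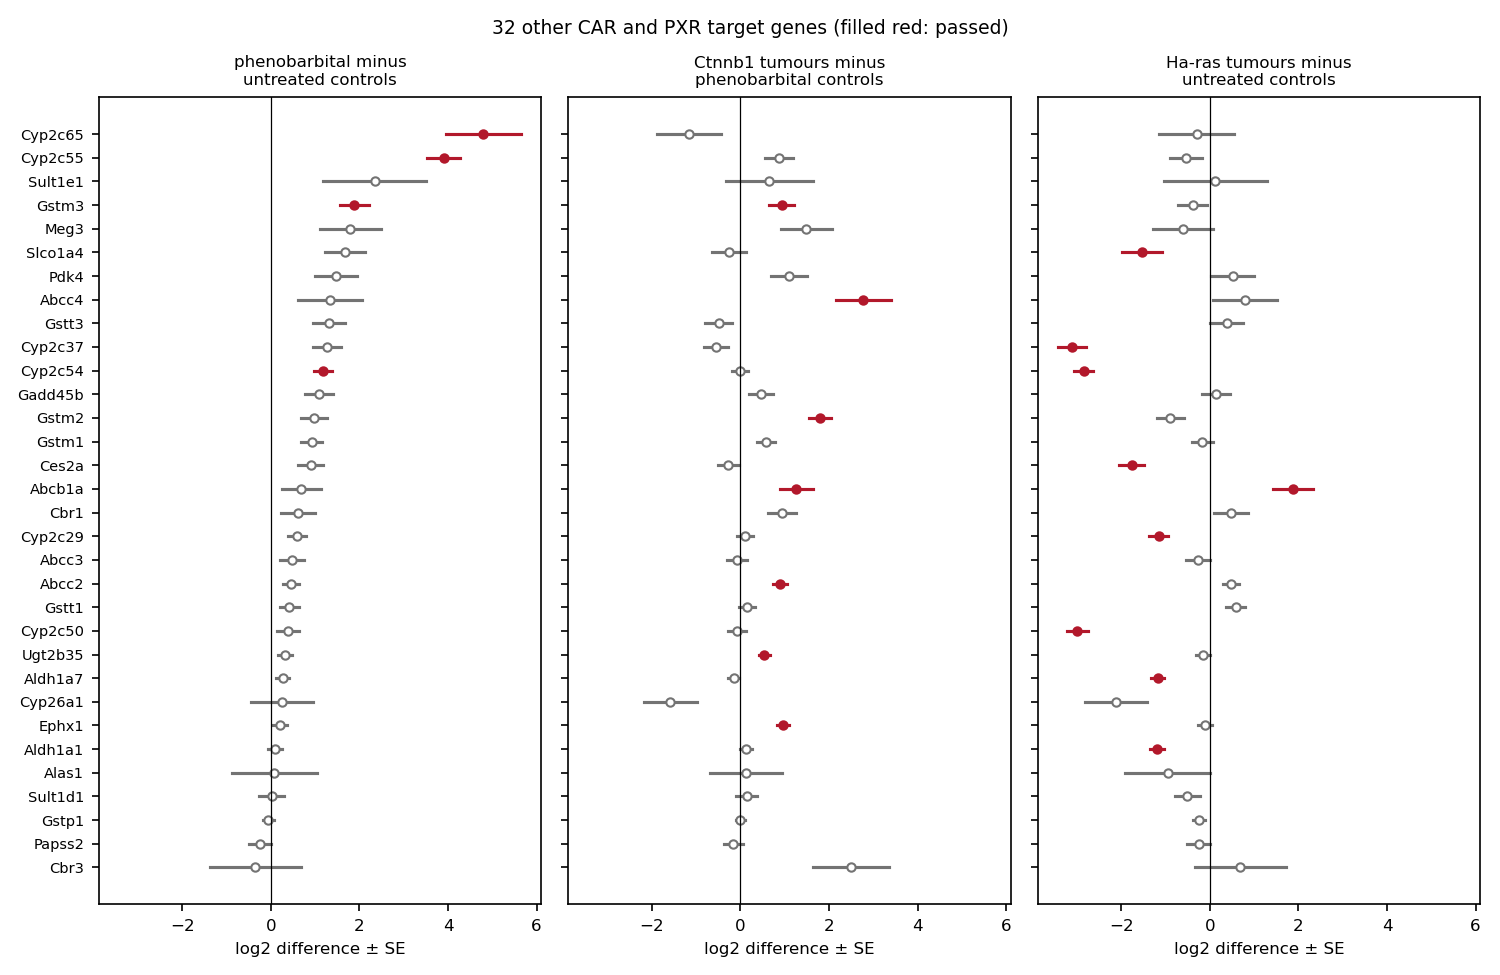
Log2 difference ± SE of 32 other CAR and PXR target genes in 3 comparisons, ordered by the difference between phenobarbital and untreated controls. Filled red points passed at an adjusted p under 0.05. The Cyp2c genes at -2.85 and below in Ha-ras tumours are near 0 in Ctnnb1 tumours, except Cyp2c37 at -0.55.

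Genes that serve P450 enzymes were followed in 2 short lists. Of 11 heme synthesis and breakdown genes, Blvrb, a biliverdin reductase, rose by 1.86 ± 0.24 in Ctnnb1 tumours (limma adjusted p = 0.000273), and Cpox, an enzyme of heme synthesis, fell by 1.17 ± 0.22 in Ha-ras tumours (adjusted p = 0.00252). The other 10 did not pass in each comparison. The other 2 Cpox probe sets did not pass there. Of 5 electron donor and partner genes, Cyb5a, a cytochrome b5, rose by 0.41 ± 0.11 in Ctnnb1 tumours (adjusted p = 0.0314), and Pgrmc1, a heme-binding partner of P450 enzymes, fell by 0.35 ± 0.10 in Ha-ras tumours (adjusted p = 0.0404). The call of Cyb5a was lost without Ctnnb1 tumour 4 or phenobarbital control 6, and that of Pgrmc1 without any 1 of 6 arrays. Between phenobarbital and untreated controls 0 of 11 and 0 of 5 passed by limma.

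Because Cyp2b9 and Cyp2b13 are known as female-biased, other sex-biased liver genes were counted in these male mice, members left out. These lists were written with earlier results of these data known, so that the counts are a description. Of 11 female-biased genes measured, 5 rose and 0 fell in Ha-ras tumours against untreated controls, with a median of 0.87. The list holds 15 genes, and Cyp3a41a on it was not counted because its probe set is shared with Cyp3a41b. That probe set fell by 1.30 ± 0.19 in this comparison (limma adjusted p = 0.00032). Prom1, a membrane glycoprotein, rose by 4.06 ± 0.75 (limma adjusted p = 0.00232), Cyp17a1, a steroid hydroxylase, by 2.73 ± 0.43 (adjusted p = 0.00061), and Cyp39a1, an oxysterol hydroxylase, by 2.28 ± 0.44 (adjusted p = 0.00324). Of 13 male-biased genes 10 fell and 0 rose, with a median of -2.68, among them Slco1a1 (-4.23 ± 0.81, adjusted p = 0.00305), Hsd3b5 (-4.07 ± 1.04, adjusted p = 0.0208), Serpina4-ps1 (-3.99 ± 0.48, adjusted p = 5.77e-05) and Cyp4a12a (-3.80 ± 0.39, adjusted p = 1.29e-05). In fits without 1 array, 3 to 5 female-biased genes rose and 8 to 10 male-biased genes fell. The call of Hsd3b5 was lost without untreated control 1 or 2 or Ha-ras tumour 1.

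In Ctnnb1 tumours against phenobarbital controls, 3 of the 11 female-biased genes rose (Hao2, Slc22a27 and Rtn4, which held in 3, 4 and 9 of 10 fits without 1 array) and 5 of the 13 male-biased genes fell. In fits without 1 array, 0 to 3 female-biased genes rose there and 4 to 5 male-biased genes fell. The medians in this comparison were -0.18 for the female-biased and -1.03 for the male-biased genes. The mean level of the female-biased genes was 7.03 to 8.25 in Ctnnb1 tumours (mean 7.44). In phenobarbital controls it was 6.53 to 7.86 (mean 7.24), which overlaps. Whether the female-biased genes shifted as a set was not tested. Between phenobarbital and untreated controls 0 of 11 and 0 of 13 passed by limma, with medians of 0.42 for the female-biased and -0.54 for the male-biased genes.

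The genes whose levels were most like those of each member over 16 arrays, among 16428 named genes and by Pearson correlation, are given as a description, since all share the arrays. For Cyp2b10 they were Cyp2c55 (0.989), Gstm3 (0.966) and Gstm1 (0.936). For Cyp3a25 they were Afmid (0.949), Cyp2c70 (0.945) and C1ra (0.93). For Cyp3a11 the closest was Sgk2 (0.882), and for Cyp3a13 it was Pde3b (0.863). Cyp2b9 and Cyp2b13 had no gene outside the families so close, with Mphosph10 at 0.769 for Cyp2b9 and Prom1 at 0.777 for Cyp2b13. The closest to Cyp3a16 was Riiad1 (0.814), at levels that may be background.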

How the data were processed

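Per the submitters' processing notes, the authors made the deposited log2 values with RMA in R 2.14.1. Scanner files were not used here. Of 45101 deposited probe sets, 64 array controls were left out. Probe sets were named from the platform's annotation, in which 34945 had 1 gene symbol, 932 several and 9160 none. Groups follow the sample titles.

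For all 16 arrays together, limma 3.58.1 under R 4.3.3 (lmFit and eBayes) fitted a coefficient for each group, in 5 comparisons. Benjamini-Hochberg adjustment was made over 45037 probe sets. Where the replicate number was used as a block, it was a fixed term of the model. Within-array differences were tested by exact permutation. The fit was tested on simulated data. Present or absent calls were not used, and a low value may be background. The number of arrays limits the precision.

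All member probe sets were named. Of each list, up to 4 passing genes with the largest change and up to 2 going the other way could be named in each comparison, by the probe set with the highest mean, as could the 3 genes most correlated with each member. Genes outside this rule (Nr1i2 and Alas1 where they did not pass, Cyp2b19, Cyp3a44 and the Cyp3a41 probe set) were named after their values were seen. Members and lists were chosen with earlier results of these data known. Alternatives covered the arrays fitted, replicate numbers, low values, probe sets per gene, normalization, variance model, array weights, a 2-fold minimum and arrays left out. Fits of the list genes and marker counts without 1 array were added after the data were seen.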

Additional observations from a re-analysis of the deposited data

Results flagged for a closer look

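Ctnnb1 tumour 7 was the lowest of the 7 Ctnnb1 tumours in Cyp3a13, at 8.61, and in Cyp3a25, at 12.6 on the log2 scale, and its gap to the next tumour was large for the range of the group by Dixon's test. About 1 in 20 groups meets this limit by chance. The median of the 7 tumours was 9.43 for Cyp3a13 and 13.4 for Cyp3a25. Cyp3a11 was also lowest in this tumour, at 14.25, within the limit.

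Cyp2b9 changed differently in the tumour types. Its change in Ctnnb1 tumours minus its change in Ha-ras tumours was -4.70 on the log2 scale, which passed the test of the difference itself (limma adjusted p = 0.0138). Both tumour types differ from each other in mutation and in phenobarbital, which cannot be told apart here. The value also takes in the difference between the controls. Cyp2b9 differed by 3.26 between phenobarbital and untreated controls (limma adjusted p = 0.0881). Between Ctnnb1 and Ha-ras tumours it differed by -1.44 (limma adjusted p = 0.195), and neither difference passed.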

How the results depend on the processing

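Of 452 member differences under other settings, 434 kept their direction and their side of the threshold, 6 lost their call, 3 gained one and 9 turned their direction, 0 of them among differences that had passed. Of 432 with 1 array left out, 386 kept both, 18 lost, 4 gained and 24 turned. The rise of Cyp2b13 in Ha-ras tumours was lost with quantile normalization repeated (adjusted p = 0.0529) and with trend and robust eBayes (0.072). The fall of Cyp3a25 there was lost with a 2-fold minimum, and so was the difference of Cyp3a13 between tumours, which was also lost with only the arrays compared (0.0805). Cyp3a25 passed between the tumour types with array weights (0.00766) and without Ctnnb1 tumours 6 and 7 and phenobarbital control 6 (0.00509). The causes were not tested.

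With the replicate number as a block, the difference between Ctnnb1 tumours and phenobarbital controls turned to -0.053 for the second Cyp2b10 probe set, 0.055 for Cyp3a11, 0.058 for Cyp3a13 and 0.0035 for Cyp3a25. Cyp3a11 passed in Ha-ras tumours (adjusted p = 0.0307) and Cyp3a13 no longer passed between the tumours (0.143). The block changed the count of all probe sets to 1175 in Ctnnb1 tumours and 908 for the difference between the changes. A block compares only arrays of the same number. Ctnnb1 tumours 1, 2, 3 and 7 share no number with phenobarbital controls, so they did not enter these differences. Between the tumours only Ctnnb1 tumours 1, 2 and 3 entered. In these comparisons, the blocking and the smaller set of arrays changed together and cannot be told apart. Arrays of the same number did not deviate together throughout. Their correlations were 0.116, 0.112 and -0.109 under phenobarbital, -0.0172, 0.364 and 0.172 without it, and -0.191, 0.029 and 0.0735 between the tumours. Arrays of different numbers gave -0.18 to 0.153, -0.283 to 0.102 and -0.199 to 0.337 in the same order. So few correlations cannot decide whether the numbers pair the samples, and the labels do not say. No paired analysis was possible between phenobarbital and untreated controls because they share no number. With array weights, Cyp3a11 turned to 0.041 and Cyp3a13 to 0.064 in Ctnnb1 tumours. Without the 3 arrays above, they turned to 0.058 and 0.078, and Cyp2b13 to 0.28 between the tumours.

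The count of all probe sets that passed in Ctnnb1 tumours was 3806, and 2293 with only the arrays compared, 2192 with the highest probe set per gene, 2027 with the gene mean, 1039 with a 2-fold minimum and 2241 without the 3 arrays. In Ha-ras tumours it was 4013, and 2462, 2440 and 1770 with the highest probe set, gene mean and 2-fold minimum, and 6353 with array weights. For the difference between the changes it was 1506, and 988 and 953 per gene, and 2315 with weights. Between phenobarbital and untreated controls it was 68, and 15 with only the arrays compared, 39 and 45 per gene, 121 with repeated quantile normalization, 241 with weights and 41 without the 3 arrays. Between tumours it was 4619, and 2750 and 2682 per gene and 1564 with a 2-fold minimum. With 1 probe set per gene, 7 members were tested, and 1 passed between controls and 3 between tumours, by construction, as Cyp2b10 counts once. With 1 array left out, the counts of all probe sets ran over 2110 to 4170 in Ctnnb1 tumours, 2587 to 3610 in Ha-ras tumours, 978 to 1730 for the difference, 20 to 124 between controls and 2762 to 5125 between tumours, and the members over 0 to 0, 1 to 2, 1 to 2, 3 to 3 and 4 to 6 in the same order.

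With 1 array left out, directions turned for these differences that had not passed. In Ctnnb1 tumours against phenobarbital controls, Cyp3a11 ran over -0.069 to 0.040 and Cyp3a13 over -0.17 to 0.12. In Ha-ras tumours against untreated controls, Cyp2b10 ran over -0.94 to 0.51 (leading probe set), -0.41 to 0.81 (the second) and -1.05 to 0.46 (the third), and Cyp3a16 over -0.068 to 0.23. For the difference between the changes, Cyp2b10 ran over -0.30 to 1.14, -0.66 to 0.56 and -0.24 to 1.27 in that order. Between the tumours Cyp2b13 ran over -0.66 to 0.20 and Cyp3a16 over -0.18 to 0.11, and between controls Cyp3a13 over -0.033 to 0.25.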
